A study of Mus musculus with 10 samples.

Results

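Cholesterol and fatty acid synthesis genes were examined in the ventral hippocampus (vHpc) of OVX mice. The set held 36 genes named by symbol, of 24421 genes listed in the count matrix: 23 of the sterol branch and 13 of the fatty acid branch. All 36 were found, all had a mean of at least 0.5 CPM (reads per 1000000 reads counted on genes), and all were among the 15081 genes tested. Membership was set by symbol, with no threshold on a measured difference.

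The study asked whether estradiol (E2) given back to OVX mice acts differently in carriers of the BDNF Met allele. Female C57/BL6 mice, either wild-type (WT) or with 1 knock-in copy of BDNF Val66Met (Het-Met), were ovariectomized at about 70 to 80 days of age and given 2 weeks to recover. Drinking water then carried either vehicle (0.1% ethanol) or E2 for 6 weeks, at 300 nM or about 0.7 µg per day. Libraries were made from RNA pooled from 2 animals each, and 10 were used here. WT mice gave 2 libraries with vehicle (numbered 1 and 3) and 2 with E2 (numbered 1 and 2), and Het-Met mice gave 3 with vehicle and 3 with E2. The methods describe as many replicates for WT as for Het-Met mice, but the samples of the series held no further WT libraries. All 4 groups lacked ovaries, so ovary-intact mice are not among the groups, and the knock-in allele is not limited to a cell type. The vHpc is a bulk tissue, in which fewer cells of a type and less RNA per cell cannot be told apart.

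Cholesterol in the brain is made locally, since the lipoproteins of the blood do not cross the blood-brain barrier. Acetyl-CoA is turned into mevalonate, isoprenoids, squalene and lanosterol, and a late series of enzymes converts lanosterol into cholesterol. When sterol is scarce, SCAP carries the membrane-bound factor SREBP2, encoded by Srebf2, out of the endoplasmic reticulum to be cleaved, and INSIG proteins hold the complex back when sterol is plentiful. The related factor SREBP1, encoded by Srebf1, acts more on fatty acid synthesis, in which citrate or acetate gives acetyl-CoA, then malonyl-CoA and palmitate, which desaturases and elongases modify further. Astrocytes and oligodendrocytes are the main makers of sterol in the adult brain, and myelin is its largest store.

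Reads counted on genes numbered 19820184 in the shallowest and 23267410 in the deepest library. Hippocampal markers were present in every library, with 10 of 10 listed genes tested and a summed level of 775 to 1012 CPM. Markers of choroid plexus, a tissue that lies next to the vHpc, moved with the groups. All 13 listed markers were tested and their summed level was 158 to 1103 CPM in vehicle-treated WT, 1942 to 2570 in E2-treated WT, 1488 to 3301 in vehicle-treated Het-Met and 273 to 1582 in E2-treated Het-Met libraries. The 14 oligodendrocyte markers summed to 5407 and 4393 CPM and the 12 astrocyte markers to 5076 and 6337 CPM in vehicle-treated WT replicates 1 and 3.

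Promoter sequence is shown for 5 genes because the promoters of this pathway are known to hold sites for SREBP and for the CCAAT-binding factor NF-Y, which act together there. The sequences are from the RefSeq table of the GRCm38.p6 build, run from 250 bases before to 50 bases after the start of the gene, are written 5′ to 3′ on the gene's strand, and carry in capitals each match to TCACNCCAC or CCAAT on either strand (CCAAT on the opposite strand reads ATTGG, and both forms can overlap). Hmgcs1 and Msmo1 encode enzymes of the sterol branch, Insig1 and Srebf2 encode regulators, and Fasn encodes the fatty acid synthase.
Hmgcs1: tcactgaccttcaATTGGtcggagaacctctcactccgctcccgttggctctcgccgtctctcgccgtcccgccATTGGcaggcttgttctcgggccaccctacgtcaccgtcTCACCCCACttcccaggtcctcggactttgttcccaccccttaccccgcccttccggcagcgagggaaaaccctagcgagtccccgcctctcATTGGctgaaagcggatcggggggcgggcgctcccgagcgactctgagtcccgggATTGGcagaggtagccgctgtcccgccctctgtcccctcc
Insig1: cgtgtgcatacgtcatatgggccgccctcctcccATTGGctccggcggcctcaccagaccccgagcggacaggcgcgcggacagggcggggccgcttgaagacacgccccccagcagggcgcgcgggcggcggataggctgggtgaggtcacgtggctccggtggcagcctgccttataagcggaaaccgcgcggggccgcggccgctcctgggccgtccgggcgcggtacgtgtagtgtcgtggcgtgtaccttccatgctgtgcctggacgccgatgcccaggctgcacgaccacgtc
Msmo1: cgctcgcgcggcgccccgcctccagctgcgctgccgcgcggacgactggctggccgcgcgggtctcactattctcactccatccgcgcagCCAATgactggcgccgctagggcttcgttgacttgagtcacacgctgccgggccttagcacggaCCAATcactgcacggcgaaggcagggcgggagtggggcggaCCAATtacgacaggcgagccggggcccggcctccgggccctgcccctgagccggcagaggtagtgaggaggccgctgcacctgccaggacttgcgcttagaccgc
Srebf2: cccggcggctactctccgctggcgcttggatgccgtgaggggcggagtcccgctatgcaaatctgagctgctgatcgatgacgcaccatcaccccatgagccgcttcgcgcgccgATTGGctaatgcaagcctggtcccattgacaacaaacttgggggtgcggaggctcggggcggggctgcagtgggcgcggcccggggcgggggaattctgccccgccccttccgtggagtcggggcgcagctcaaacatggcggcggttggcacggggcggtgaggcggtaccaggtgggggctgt
Fasn: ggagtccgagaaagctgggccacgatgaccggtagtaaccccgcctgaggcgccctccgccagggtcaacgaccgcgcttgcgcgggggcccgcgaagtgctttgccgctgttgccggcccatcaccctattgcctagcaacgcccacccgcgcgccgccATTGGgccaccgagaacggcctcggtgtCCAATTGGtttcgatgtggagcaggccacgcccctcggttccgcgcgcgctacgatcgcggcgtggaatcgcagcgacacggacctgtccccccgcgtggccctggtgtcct

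These windows lie at chr13:119690101-119690400 (plus strand) for Hmgcs1, chr5:28071162-28071461 (plus) for Insig1, chr8:64733529-64733828 (minus) for Msmo1, chr15:82147019-82147318 (plus) for Srebf2 and chr11:120824498-120824797 (minus) for Fasn. RefSeq promoters were matched for 19 sterol and 10 fatty acid genes. The core of the sterol regulatory element, TCACNCCAC, was found in 1 of the 19 sterol genes, in Hmgcs1 at 137 bases before the start, and in 0 of the 10 fatty acid genes, beside 1.44% of all 27025 genes in the table. The CCAAT motif was found in 17 of 19 sterol genes (17 of 25 promoters, 68.0%) and in 6 of 10 fatty acid genes (7 of 12 promoters, 58.3%), beside 37.4% of all 32851 promoters. Msmo1 held 3 CCAAT matches, all on its own strand, and Hmgcs1 held 4, all on the opposite strand. In Fasn a CCAAT and an ATTGG share bases, and another ATTGG lies 90 bases before the start. A match is a match of letters only.

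Expression levels were compared between genes as mean CPM per kilobase of exon over the 10 libraries. Hmgcs1, which condenses acetyl-CoA units into HMG-CoA, was highest in the sterol branch at 55.9 CPM per kb, followed by Srebf2 at 27.0, Pmvk at 22.7 and Scap at 17.1. Idi1, the isomerase that makes dimethylallyl pyrophosphate, was lowest at 0.310 CPM per kb, and Stard4, which carries sterol through the cytosol, came next at 1.95. Scd2, the stearoyl-CoA desaturase typical of brain, stood at 293 CPM per kb, 6.89 times the level of its neighbour Scd1 at 42.6. Fads1 at 60.5, Acsl3 at 44.8 and Fads2 at 43.5 CPM per kb followed in the fatty acid branch, and Acaca, the carboxylase that makes malonyl-CoA, was lowest at 2.25. On the CPM scale the median gene of the sterol branch lay at 38.9 and that of the fatty acid branch at 143.

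Idi1 rested on 3 to 41 reads per library, so counting error is large for this gene, and the library with 3 reads stood at the detection floor set here. Stard4 had 184 to 294 reads per library, and Hmgcs1 4646 to 6144. Some genes share sequence with others. Of the 75-base windows in its transcripts, Acat2 shared 33.9% with transcripts of other genes (mostly Acat3), Acaca 26.8% (Gm5182), Idi1 23.6% (Gm13502), Fdps 23.5% (Gm43738) and Fdft1 21.8% (Ctsb), while 18 of the 36 shared none and 13 shared up to 10%. Windows were matched on either strand, so part of the sharing can be with transcripts of the opposite strand. Values of these 5 genes are uncertain where the counting split such reads. The desaturase genes are neighbours on chromosome 19, with 87.6 kb between Scd1 and Scd2 and 81.1 kb between Fads1 and Fads2.

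Fold ranges over the libraries were small for all genes but Idi1. Leaving out Idi1, the highest library of a sterol gene was at most 1.71 times the lowest (Stard4), and in the fatty acid branch at most 1.37 times (Acsl3). Dhcr7, the last reductase of the pathway, ranged only 1.15-fold, from 33.2 to 38.3 CPM, and Fads1, a delta-5 desaturase, 1.15-fold. The SD within groups on the log2(CPM + 0.5) scale had a median of 0.127 in the sterol branch and 0.0908 in the fatty acid branch. It was 0.124 over all genes tested and 0.101 over genes with at least about 10 CPM. The sterol branch thus varied more within groups than genes with at least about 10 CPM, and the fatty acid branch less.

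**Figure D1:**
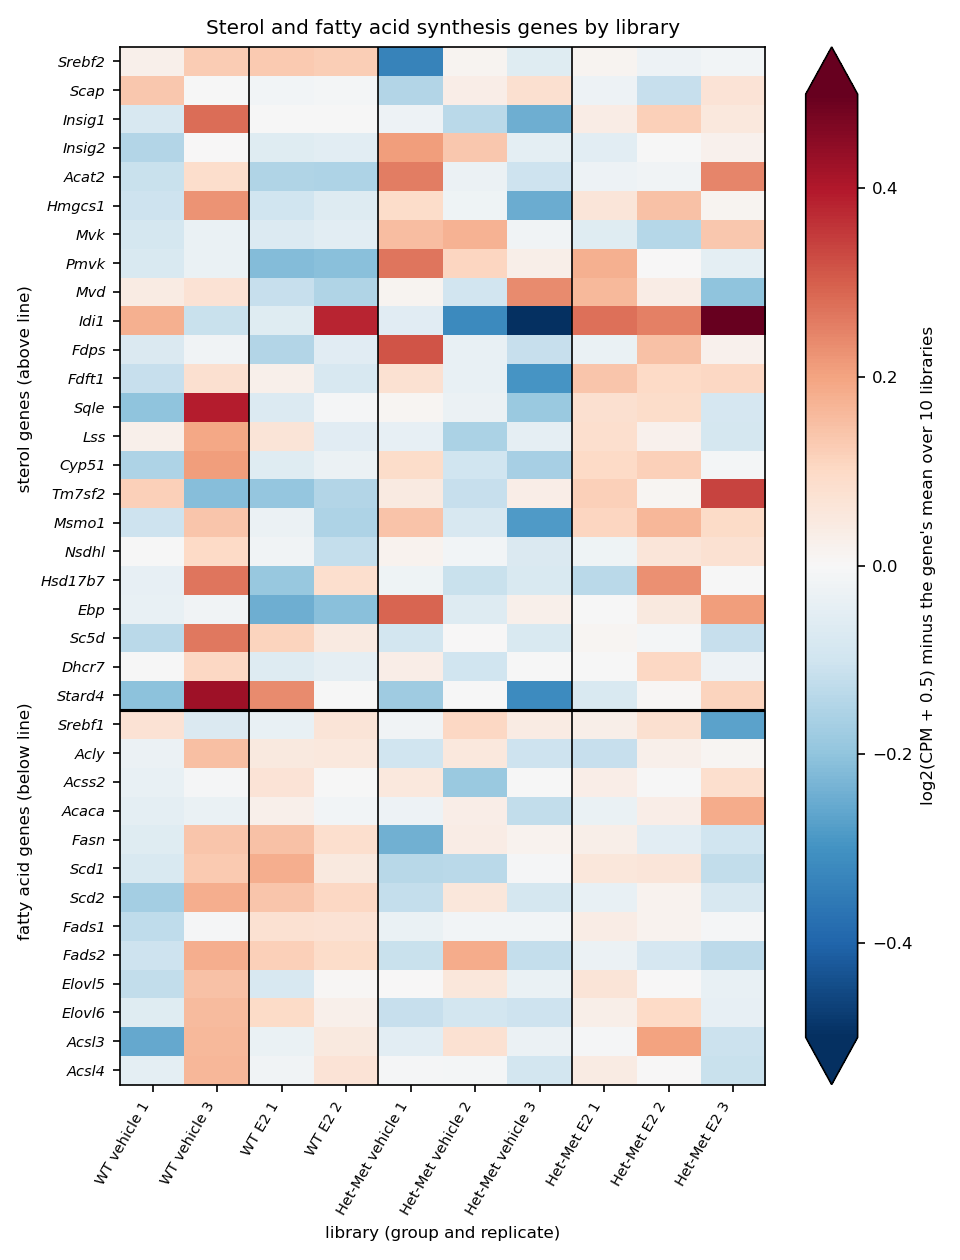
Level of each of the 36 genes in each of the 10 libraries, as log2(CPM + 0.5) minus the gene's mean over the libraries; rows are genes, columns are libraries, and colours saturate at 0.5 in either direction. Vehicle-treated WT replicate 3 was the highest library for 10 of 23 sterol and 5 of 13 fatty acid genes, and vehicle-treated Het-Met replicate 3 the lowest for 7 sterol genes.

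The branch medians differed most inside a group between the vehicle-treated WT libraries, on which every E2 comparison in WT mice and every genotype comparison under vehicle rests. In replicate 1 the median sterol gene lay 0.08 below its own mean over libraries (-0.08, 6 of 23 above it), and in replicate 3 it lay at 0.10 (16 of 23 above). The fatty acid genes split the same way, with medians of -0.06 (1 of 13 above) and 0.15 (9 of 13). The E2-treated WT libraries were alike, at -0.06 and -0.05 for the sterol branch and 0.07 and 0.05 for the fatty acid branch. Vehicle-treated Het-Met libraries had sterol medians of 0.03, -0.04 and -0.08, and E2-treated Het-Met libraries 0.01, 0.05 and 0.02, so these groups overlapped. Fatty acid medians were -0.05, 0.04 and -0.03 under vehicle and 0.03, 0.02 and -0.08 under E2 in Het-Met mice. Oligodendrocyte and astrocyte marker sums also differed between the vehicle-treated WT libraries, as given above, and their part in the split was not tested. Inside the Het-Met groups the oligodendrocyte sum ran from 4315 to 5143 CPM under vehicle and from 4290 to 5371 CPM under E2.

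**Figure D2:**
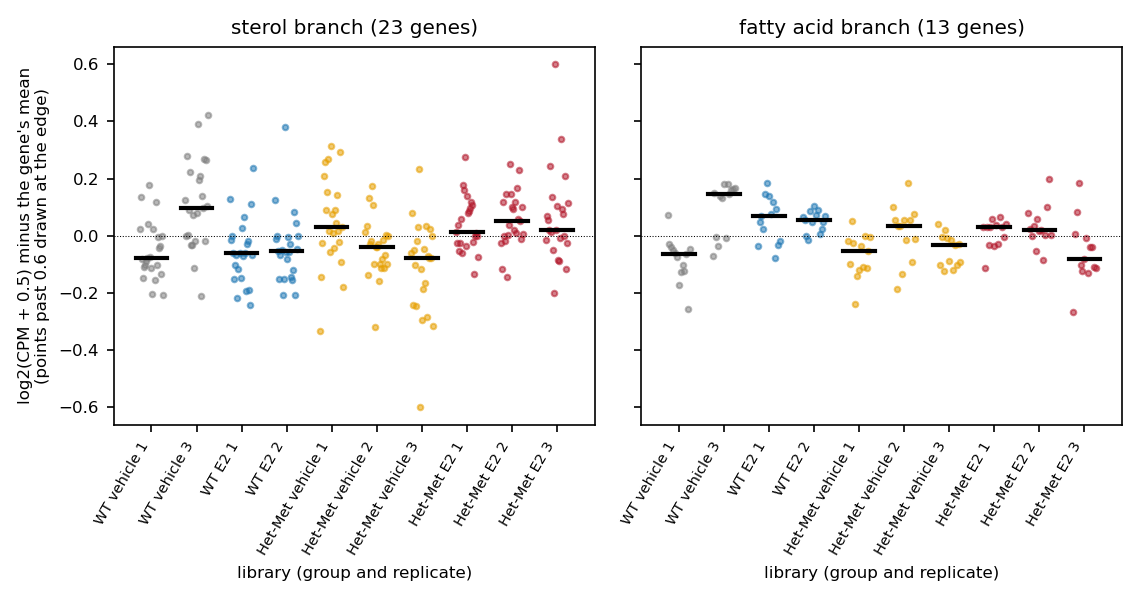
Deviation of every gene (points) from its own mean over the 10 libraries, in log2(CPM + 0.5), for the sterol branch (left) and the fatty acid branch (right), with the median of each library as a bar and points past 0.6 drawn at the edge. The sterol medians of the vehicle-treated WT libraries were -0.08 and 0.10, which spans those of all other libraries.

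The first comparison asked what E2 add-back did in OVX WT mice. Here and in the other comparisons a gene is called higher or lower in its mean by the sign of its log2 fold change, the difference of group means of log2(CPM + 0.5). Sterol genes had lower means under E2 for 17 of 23 genes, with a median log2 fold change of -0.11 beside -0.0026 over all genes, and fatty acid genes had higher means for 10 of 13, with a median of 0.05. Over all genes tested, 49.0% had a log2 fold change above 0. By limma, 0 of the 36 genes passed an adjusted p under 0.05 with a fold change above 1.3 (0.0133% of all genes did), and 0 passed an unadjusted p under 0.05 (4.04% of all genes). edgeR and DESeq2 on the recovered reads also called 0 of the 36, here and in the other comparisons. In the sterol branch, 7 genes had non-overlapping libraries with E2 lower (16.2% of all genes tested), namely Scap, Acat2, Pmvk, Mvd, Nsdhl, Ebp and Dhcr7, and 0 had E2 higher (15.6% of all genes). In the fatty acid branch 3 genes, Acss2, Acaca and Fads1, had E2 higher and 0 had E2 lower.

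Ebp, the isomerase that shifts the double bond of the sterol ring, had the largest sterol difference. It measured 16.3 and 16.6 CPM under vehicle and 14.1 and 14.4 CPM under E2 in WT mice. The 2 groups did not overlap, and limma gave a log2 fold change of -0.20 (SE 0.13) that did not pass the test. Fads1 had the largest difference of the fatty acid branch. It measured 266 and 290 CPM under vehicle and 307 and 306 CPM under E2 in WT mice, groups that did not overlap, with a log2 fold change of 0.14 (SE 0.07) that did not pass either. All 4 desaturase genes of the set had higher means with E2, by log2 fold changes of 0.06 to 0.14. Scd2 measured 1420 and 1815 CPM under vehicle and 1760 and 1718 CPM under E2, so its E2-treated libraries lay between the vehicle-treated ones. Scd1 showed the same overlap, at 197 and 228 against 236 and 215 CPM, where only replicate 2 of the E2 group fell inside the vehicle range. Leaving out Idi1, the 95% intervals of the sterol genes ran from -0.48 to 0.40 and those of the fatty acid genes from -0.24 to 0.34 on the log2 scale.

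The size of the sterol median and the direction of the fatty acid median changed with the vehicle-treated WT libraries. Without replicate 3 of that group the sterol median was -0.011, with 11 of 23 genes higher. Without replicate 1 it was -0.18, with 3 of 23 higher. The sterol median stayed below 0 with any library left out. The fatty acid median was 0.12 without replicate 3 and -0.061 without replicate 1. Choroid plexus markers had a median log2 fold change of 2.06 in this comparison, 13 of 13 being higher, and their part in the result was not tested. Oligodendrocyte markers had a median of -0.0096 (6 of 14 higher) and astrocyte markers 0.039 (9 of 12), and their part was not tested either. For endothelial markers the median was -0.14 (0 of 8 higher) and for microglial markers -0.081 (1 of 10). Neuronal markers were at -0.057 (5 of 12) and hippocampal markers at 0.093 (7 of 10), also not tested for their part.

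In OVX Het-Met mice the sterol genes had higher means under E2 for 17 of 23 genes, with a median log2 fold change of 0.09 beside 0.0044 over all genes, of which 51.8% were above 0. All 8 late sterol genes and all 3 squalene genes had log2 fold changes above 0, as did 3 of 7 mevalonate genes. For Ebp the value was 0.0017 and the mean CPM was 17.9 in both groups. Fatty acid genes had higher means for 11 of 13, with a median of 0.02. By limma, 0 of the 36 genes were called, as were 0% of all genes tested, and 3 had an unadjusted p under 0.05 (5.45% of all genes did), all in the sterol branch. These 3 genes, Insig1, Idi1 and Fdft1, were also the sterol genes whose E2-treated libraries all lay above the vehicle-treated ones (5.15% of all genes), and 0 lay below (5.11% of all genes). Without vehicle-treated Het-Met replicate 3 the sterol median was 0.041 (17 of 23 above 0). The number of sterol genes at an unadjusted p under 0.05 changed with the library left out. In the fatty acid branch Fads1 and Elovl6 did not overlap, both with E2 higher.

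In Het-Met mice Idi1 measured 0.949, 0.706 and 0.139 CPM under vehicle and 1.32, 1.29 and 1.94 CPM under E2. In WT mice it measured 1.20 and 0.892 CPM under vehicle and 0.942 and 1.46 CPM under E2. All 3 E2-treated Het-Met libraries were above all 3 vehicle-treated ones, and the WT groups overlapped. limma gave a log2 fold change of 0.95 (SE 0.27, adjusted p = 0.710) in Het-Met mice, which was 0.60 without vehicle-treated replicate 3, the library with 3 reads, and was 1.44 with a pseudocount of 0.1 CPM. Log2 fold changes of a gene this low depend on the pseudocount.

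Insig1, whose protein retains SCAP in the endoplasmic reticulum and whose own gene is a known target of SREBP2, lies at chr5:28071363-28078662 on the plus strand. Its level was 42.7, 39.6 and 36.7 CPM under vehicle and 44.7, 47.3 and 45.2 CPM under E2 in Het-Met mice. The groups did not overlap, with a log2 fold change of 0.21 (SE 0.09, limma adjusted p = 0.872). In WT mice it had 41.1 and 52.9 CPM under vehicle and 43.5 and 43.5 CPM under E2, where the E2-treated libraries fell between the vehicle-treated ones.

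Fdft1, the squalene synthase, had 73.6, 68.0 and 56.8 CPM under vehicle and 76.8, 74.8 and 75.1 CPM under E2 in Het-Met mice, again without overlap. Its log2 fold change was 0.20 (SE 0.09, limma adjusted p = 0.872), and 0.09 without vehicle-treated replicate 3, the lowest library. In WT mice it had 64.4 and 73.8 CPM under vehicle and 71.0 and 66.0 CPM under E2, which overlapped. Elovl6, the elongase that extends palmitate, had the largest fatty acid difference, with 62.6, 63.6 and 63.1 CPM under vehicle and 69.2, 72.7 and 66.0 CPM under E2. Its groups did not overlap, and the log2 fold change of 0.13 (SE 0.07) did not pass the test. In E2-treated WT mice Elovl6 had 72.5 and 68.98 CPM. Leaving out Idi1, the 95% intervals of the sterol genes ran from -0.33 to 0.50 and those of the fatty acid genes from -0.28 to 0.28. Choroid plexus markers had a median of -1.24 in this comparison, with 13 of 13 lower, and their part in the result was not tested. For oligodendrocyte markers the median was 0.055 (11 of 14 higher) and for astrocyte markers 0.044 (7 of 12), also not tested for their part. Endothelial markers had a median of -0.046 (3 of 8 higher) and microglial markers -0.059 (4 of 10). Neuronal markers were at 0.041 (8 of 12) and hippocampal markers at -0.093 (3 of 10), again not tested for their part.

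**Figure D3:**
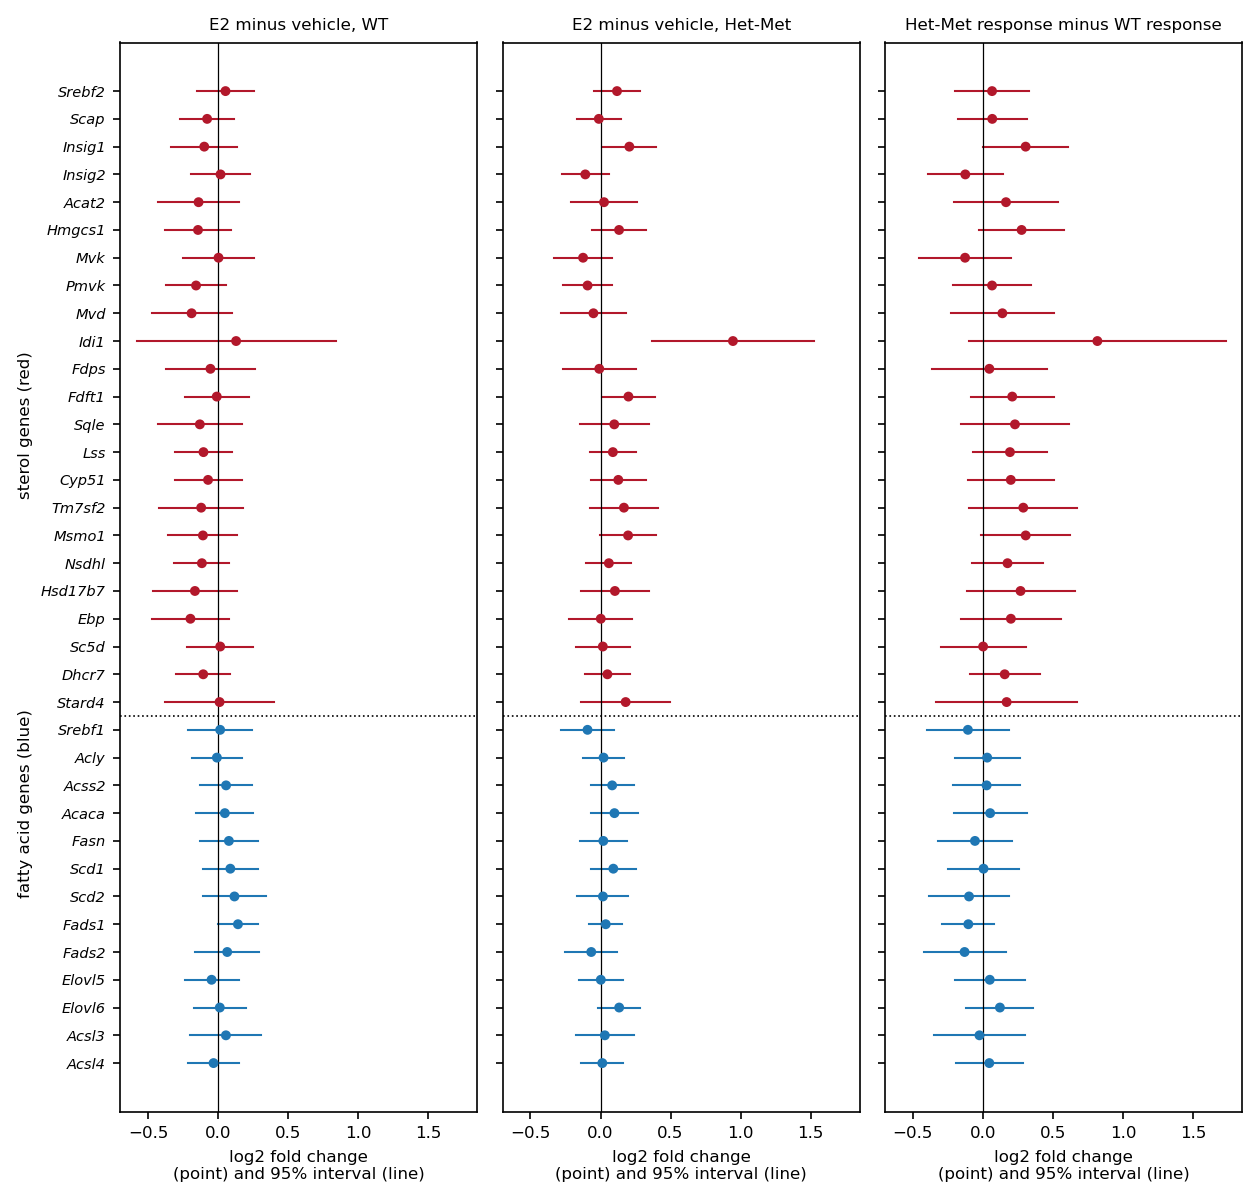
Log2 fold change with E2 in WT (left) and Het-Met mice (middle) and the difference between these responses (right) for each of the 36 genes, sterol genes in red and fatty acid genes in blue; points are limma estimates and lines 95% intervals. Sterol points lie mostly left of 0 in WT (17 of 23) and right of 0 in Het-Met mice (17 of 23), and most lines cross 0.

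The difference between the responses, that of Het-Met minus that of WT mice, was tested as an interaction. It was above 0 for 21 of 23 sterol genes, with a median of 0.18 on the log2 scale beside 0.0051 over all genes, of which 51.4% were above 0. All 8 late sterol genes and all 3 squalene genes were above 0, and the exceptions were Insig2 and Mvk, both at -0.13. The 13 fatty acid genes had a median of 0.01, with 7 above 0. By limma, 0 of the 36 genes were called (0.0729% of all genes were), and 1 had an unadjusted p under 0.05 (5.42% of all genes), namely Insig1 at 0.31 (SE 0.14, adjusted p = 0.915). Msmo1, the sterol C4-methyl oxidase, had the same estimate of 0.31 (SE 0.15), Tm7sf2, a late sterol reductase, 0.29 (SE 0.18), and Hmgcs1 0.28, without passing. Idi1, the gene with few reads, had the largest estimate of the 36 at 0.82 (SE 0.43), and it did not pass either. Because all these estimates share the same 10 libraries and the same WT control, the 21 genes are not 21 separate observations.

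Tm7sf2 measured 16.2 and 12.8 CPM under vehicle and 12.97 and 13.4 CPM under E2 in WT mice. In Het-Met mice it measured 15.4, 13.7 and 15.3 CPM under vehicle and 16.2, 14.98 and 18.97 CPM under E2. Its groups overlapped within each genotype. Without vehicle-treated WT replicate 3 the sterol median of the interaction was 0.11 with 18 of 23 genes above 0 and Insig1 was at 0.13. Without replicate 1 the median was 0.23 with 20 of 23 above 0. The fatty acid median was -0.085 without replicate 3 and 0.078 without replicate 1. Choroid plexus markers had a median interaction of -3.32, with 13 of 13 below 0, and their part in the result was not tested. Oligodendrocyte markers had a median interaction of 0.073 (11 of 14 above 0) and astrocyte markers -0.021 (5 of 12), also not tested for their part. Endothelial markers were at 0.050 (5 of 8), microglial markers at -0.0098 (4 of 10) and neuronal markers at 0.030 (7 of 12). Hippocampal markers were at -0.19 (3 of 10), and 1 of them was called (limma adjusted p = 0.033), beside 0.0729% of all genes. The part of these lists was not tested.

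Under vehicle, Het-Met mice were compared with WT mice to ask what the genotype alone did in OVX mice. Sterol genes had lower means in Het-Met mice for 16 of 23 genes, with a median log2 fold change of -0.08 beside 0.0200 over all genes, of which 55.3% were above 0. Fatty acid genes had lower means for 9 of 13, with a median of -0.06. By limma, 0 of the 36 genes were called (0.00663% of all genes were). An unadjusted p under 0.05 was reached by 3 genes (10.7% of all genes), Srebf2, Insig1 and Lss, each with the lower mean in Het-Met mice. In the sterol branch Mvk and Pmvk did not overlap with Het-Met higher (14.8% of all genes), and Srebf2 and Lss with Het-Met lower (9.89% of all genes).

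Srebf2 lies at chr15:82147181-82205379. It had 197 and 211 CPM in vehicle-treated WT and 153, 195 and 185 CPM in vehicle-treated Het-Met libraries. The groups did not overlap, with a log2 fold change of -0.20 (SE 0.09, limma adjusted p = 0.442), and Het-Met replicate 1 stood lowest, without which the value was -0.10. Under E2 it had 212 and 211 CPM in WT and 195, 189.9 and 192 CPM in Het-Met libraries, again without overlap. Lss, which closes squalene epoxide into lanosterol, had 44.9 and 50.6 CPM in WT and 42.9, 39.5 and 42.8 CPM in Het-Met libraries, with a log2 fold change of -0.19 (SE 0.09, limma adjusted p = 0.455) and of -0.11 without WT replicate 3. Under E2 Lss had 46.2 and 42.4 CPM in WT and 46.9, 44.8 and 41.5 CPM in Het-Met libraries, which overlapped. For Insig1 the log2 fold change was -0.23 (SE 0.10, limma adjusted p = 0.445), the groups overlapped, and without WT replicate 3 it was -0.05. Elovl6 was the fatty acid gene with the largest difference, at -0.15 (SE 0.08), from 64.9 and 75.8 CPM in WT to the Het-Met values given above, without overlap and without passing the test. Idi1 had the largest sterol estimate, -0.57 (SE 0.30), with overlapping groups.

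Srebf1, which encodes SREBP1, showed no such pattern. It had 65.9 and 59.6 CPM in vehicle-treated WT, 61.1 and 65.5 in E2-treated WT, 61.8, 67.3 and 64.5 in vehicle-treated Het-Met and 64.0, 66.3 and 52.0 in E2-treated Het-Met libraries. All groups overlapped, with the lowest level in E2-treated Het-Met replicate 3. The sterol median of the vehicle comparison was 0.029 without WT replicate 3 (14 of 23 higher) and -0.17 without WT replicate 1 (6 of 23). Choroid plexus markers had a median of 1.65, with 13 of 13 higher in Het-Met mice, and their part in the result was not tested. For oligodendrocyte markers the median was -0.062 (2 of 14 higher) and for astrocyte markers 0.036 (7 of 12), also not tested for their part. Endothelial markers had a median of -0.019 (4 of 8 higher) and microglial markers 0.088 (8 of 10). Neuronal markers were at -0.020 (3 of 12) and hippocampal markers at -0.017 (5 of 10), again not tested for their part.

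Under E2, the sign of the sterol median was the opposite of that under vehicle, which itself depended on 1 library. Without vehicle-treated WT replicate 3 the median under vehicle was 0.029 (14 of 23 higher). The sterol genes under E2 share the same 2 WT libraries, so they are not separate observations. Het-Met mice had higher means than WT mice for 19 of 23 sterol genes, with a median log2 fold change of 0.11 beside 0.0279 over all genes, of which 57.3% were above 0. All 7 mevalonate genes, all 3 squalene genes and 7 of 8 late sterol genes had the higher mean in Het-Met mice, with Srebf2, Scap, Sc5d and Stard4 as the exceptions. Fatty acid genes had lower means for 9 of 13, with a median of -0.06. By limma, 0 of the 36 genes were called (0.0265% of all genes were), and 3 had an unadjusted p under 0.05 (11.7% of all genes), Pmvk, Ebp and Tm7sf2. That count was lower with either E2-treated WT library left out, and higher in a fit on only the libraries compared. The sterol median was 0.071 without E2-treated WT replicate 1 and 0.099 without E2-treated WT replicate 2. In the sterol branch, 12 of 23 genes had all Het-Met libraries above both WT libraries (21.1% of all genes), and Srebf2 and Sc5d had them below (14.7% of all genes). In the fatty acid branch 0 of 13 had Het-Met higher and 5 of 13 lower without overlap, namely Acly, Fasn, Scd2, Fads1 and Fads2.

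Pmvk, a mevalonate pathway kinase, had 33.2 and 33.4 CPM in E2-treated WT and 43.8, 38.8 and 37.4 CPM in E2-treated Het-Met libraries. The groups did not overlap, with a log2 fold change of 0.26 (SE 0.09, limma adjusted p = 0.356). Under vehicle it also did not overlap, at 36.7 and 37.9 CPM in WT and 46.8, 41.7 and 39.6 CPM in Het-Met libraries, with a log2 fold change of 0.19 (SE 0.09). Ebp had 16.7, 17.4 and 19.4 CPM in E2-treated Het-Met mice beside the E2-treated WT values above, a log2 fold change of 0.31 (SE 0.12, limma adjusted p = 0.363), and 20.6, 16.0 and 17.1 CPM in vehicle-treated Het-Met mice, which overlapped with WT. Tm7sf2 had the largest difference of the sterol branch, 0.32 (SE 0.13, limma adjusted p = 0.378), and its groups did not overlap. Reads of Tm7sf2 may in part belong to Vps51, with which it shared 8.83% of its 75-base windows.

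All 4 desaturase genes of the set had lower means in Het-Met than in WT mice under E2. Fads2, the delta-6 desaturase, had 155 and 152 CPM in WT and 140, 135 and 130 CPM in Het-Met libraries. These groups did not overlap, and the log2 fold change of -0.19 (SE 0.10) was the largest of the fatty acid branch and did not pass the test. Under vehicle Fads2 had 133 and 162 CPM in WT and 132, 162 and 132 CPM in Het-Met libraries, which overlapped. Scd2 had 1558, 1618 and 1510 CPM in E2-treated Het-Met mice, below both E2-treated WT libraries, and 1471, 1661 and 1504 CPM in vehicle-treated Het-Met mice, which overlapped with WT. Its log2 fold change under E2 was -0.16 (SE 0.10). Scd1 had 189, 189 and 207 CPM under vehicle and 216, 217 and 191 CPM under E2 in Het-Met mice, overlapping with WT under both treatments. Fads1 had 284, 288 and 288 CPM under vehicle and 299, 295 and 290 CPM under E2 in Het-Met mice. Choroid plexus markers had a median of -1.58, with 13 of 13 lower in Het-Met mice, and their part in the result was not tested. Oligodendrocyte markers had a median of -0.0065 (7 of 14 higher) and astrocyte markers -0.019 (5 of 12), also not tested for their part. For endothelial markers the median was 0.0059 (4 of 8 higher) and for microglial markers 0.089 (10 of 10). Neuronal markers were at 0.00073 (6 of 12) and hippocampal markers at -0.13 (4 of 10), again not tested for their part.

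**Figure D4:**
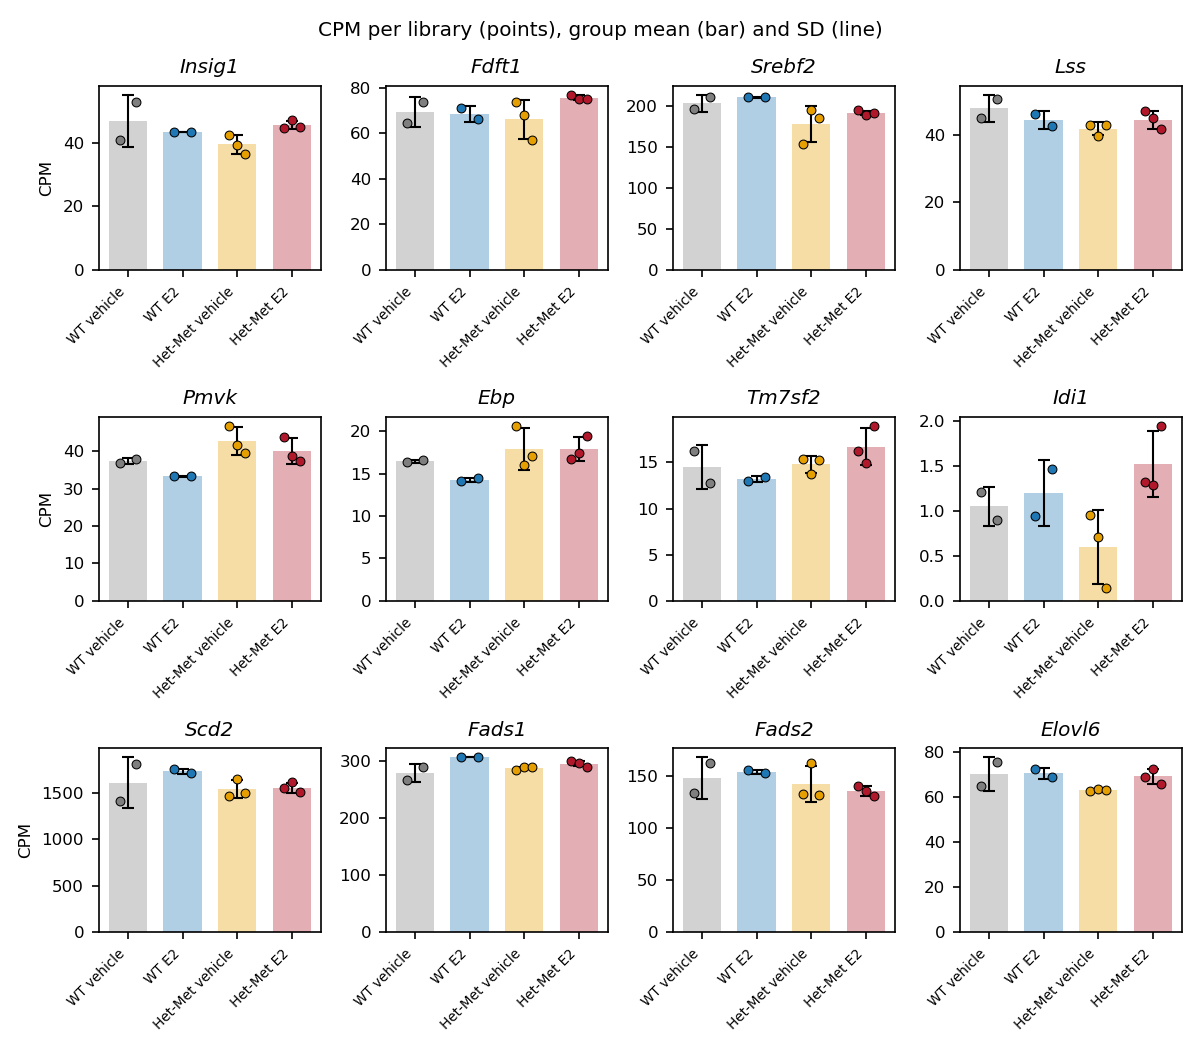
CPM of 12 named genes in each library (points) by group, with the group mean (bar) and SD (line), n = 2 for each WT and n = 3 for each Het-Met group. Pmvk stood at 33.2 and 33.4 CPM in E2-treated WT libraries, below every other library, and Idi1 fell to 0.139 CPM in vehicle-treated Het-Met replicate 3.

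Averaged over both genotypes, E2 gave sterol genes a median log2 fold change of -0.02, with 9 of 23 above 0, and fatty acid genes 0.05, with 9 of 13 above 0, beside 50.9% of all genes above 0. Without vehicle-treated WT replicate 3 the sterol median was 0.034 and the fatty acid median 0.078, and without replicate 1 they were -0.063 and -0.0033. By limma, 0 of the 36 genes were called (0.00663% of all genes) and 1, Idi1 at 0.54 (SE 0.21, adjusted p = 0.999), had an unadjusted p under 0.05 (3.22% of all genes). Averaged over both treatments, Het-Met mice had a sterol median of 0.02, with 14 of 23 above 0, and a fatty acid median of -0.07, with 3 of 13 above 0, beside 57.3% of all genes above 0. The sterol median was -0.0048 with median-of-ratios scaling, where the median of all genes was 0.0019, so its sign changed with the scaling. Again 0 genes were called by limma (0.0265% of all genes), and 3 sterol genes had an unadjusted p under 0.05 (16.6% of all genes). These were Pmvk at 0.22 (SE 0.07, adjusted p = 0.144), Srebf2 at -0.17 (SE 0.06, adjusted p = 0.193) and Ebp at 0.21 (SE 0.08, adjusted p = 0.227). Pmvk therefore had the higher mean in Het-Met mice while Srebf2, which encodes the factor that controls the branch, had the lower one. Across the 7 comparisons the fatty acid branch had 0 genes at an unadjusted p under 0.05 by limma in the fit on all libraries. Other settings gave some. For the genotype averaged over treatments there were 2 with edgeR on the recovered reads and 2 with median-of-ratios scaling. For genotype under E2 there were 3 in a fit on only the libraries compared. The shares of all genes in these settings are not given here.

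Genes around the pathway were read from lists. In all 7 comparisons limma called 0 of 11 genes that process SREBP or bind beside it, 0 of 10 of the isoprenoid side branch, 0 of 18 of sterol uptake, transport and turnover, and 0 of 30 other genes of fatty acid and lipid synthesis. At an unadjusted p under 0.05 there were in any comparison at most 1 of 11, 1 of 10, 3 of 18 and 3 of 30. The last counts were those of genotype averaged over treatments, where 16.6% of all genes passed, and 3 of the 30 also passed for the interaction, where 5.42% did. Of the SREBP list only Sp1, a factor that binds beside SREBP, had an unadjusted p under 0.05, with 40.3 ± 1.96 CPM (SD, n = 2) in vehicle-treated WT and 34.6 ± 2.36 CPM (SD, n = 3) in vehicle-treated Het-Met mice, a log2 fold change of -0.22 (limma adjusted p = 0.418). Of the isoprenoid list, Pdss1, which makes the tail of coenzyme Q, had 6.36 ± 0.0294 CPM in vehicle-treated WT, 4.94 ± 0.00496 in E2-treated WT (n = 2 each), 4.70 ± 0.903 in vehicle-treated Het-Met and 6.05 ± 0.150 CPM in E2-treated Het-Met mice (SD, n = 3 each), with an interaction of 0.68 (SE 0.22, limma adjusted p = 0.539). Fnta, a subunit of the protein prenyl transferases, had 36.2 ± 1.97 CPM (n = 2) in E2-treated WT and 44.3 ± 4.07 CPM (SD, n = 3) in E2-treated Het-Met mice, a log2 fold change of 0.29 (limma adjusted p = 0.343).

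Among the 18 genes of sterol handling, 15 had a higher mean with E2 in WT and 14 in Het-Met mice, and 15 had a lower mean in Het-Met than in WT mice under E2, where 57.3% of all genes were higher. Cyp46a1, the neuronal hydroxylase that starts cholesterol export from the brain, had the higher mean in Het-Met mice there, at 210 ± 5.72 CPM (n = 2) in WT and 241 ± 18.2 CPM (SD, n = 3) in Het-Met mice, with a log2 fold change of 0.19 (limma adjusted p = 0.381). Npc2, which moves sterol out of lysosomes, had 43.1 ± 1.60 CPM (n = 2) in vehicle-treated WT and 51.6 ± 4.17 CPM (SD, n = 3) in vehicle-treated Het-Met mice, at 0.25 (limma adjusted p = 0.357). Npc1, a lysosomal sterol transporter, Lrp1, a lipoprotein receptor, and Soat1, which esterifies cholesterol, had lower means in Het-Met mice averaged over treatments, at -0.13, -0.16 and -0.21, each with an unadjusted p under 0.05 and an adjusted p by limma of 0.212, 0.268 and 0.293.

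Of the 30 other lipid synthesis genes, Elovl7, a fatty acid elongase, had 17.3 ± 0.772 CPM in vehicle-treated and 22.6 ± 2.96 CPM in E2-treated WT mice (SD, n = 2 each), with an interaction of -0.53 (SE 0.18, limma adjusted p = 0.572). Acacb, the mitochondrial acetyl-CoA carboxylase, had 5.82 ± 0.868 and 9.30 ± 2.27 CPM in the same groups (SD, n = 2 each), with an interaction of -0.83 (SE 0.31, limma adjusted p = 0.723). Scd3, a desaturase related to Scd1, had an interaction of 0.64 (SE 0.25, limma adjusted p = 0.742). It had 3.52 ± 0.0662 CPM under vehicle and 2.61 ± 0.0137 CPM under E2 in WT mice (SD, n = 2 each). In Het-Met mice it had 2.74 ± 0.368 and 3.42 ± 0.587 CPM (SD, n = 3 each). With E2 in WT mice, and for genotype under E2, its direction was opposite to that of the 4 desaturase genes of the set. Fads6 had the lower mean in Het-Met mice under E2, 4.61 ± 0.700 (n = 3) against 6.38 ± 0.753 CPM (SD, n = 2), at -0.43 (limma adjusted p = 0.379). Averaged over treatments, Acsl6, an acyl-CoA synthetase, at -0.14, Fads6 at -0.28 and Tecr, a reductase of the elongation cycle, at 0.12 had an unadjusted p under 0.05 and an adjusted p by limma of 0.297, 0.277 and 0.296.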

How the data were processed

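Ventral hippocampus RNA from 10 libraries of OVX mice was analysed. Single-end reads of 75 bp were trimmed, filtered and aligned to mm10 by the authors (TopHat2), and per-gene values were deposited as CPM, reads per 1000000 reads counted on genes. The submitters' processing notes also name DESeq and DESeq2. The annotation behind the counts and the use of strand are not given in the sources used here. Each deposited value was a whole multiple of 1 read (100% of values, tolerance 0.0001), so whole reads were recovered. Over the pairs of libraries in a group, chi-square per degree of freedom was 3.40 to 14.1, so no pair agreed within sampling noise. The lowest value was that of the E2-treated WT pair, and all other pairs were at 7.66 or more. Libraries of that pair were thus closer to each other than those of any other group.

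The 15081 genes averaging 0.5 CPM or more were tested on log2(CPM + 0.5) with limma 3.58.1 in R 4.3.3 (group means, empirical Bayes with trend, 8.9 prior and 6 residual degrees of freedom, two-sided), with Benjamini-Hochberg adjustment over all of them. Calls needed an adjusted p under 0.05 and a fold change above 1.3. On this scale the change of a low gene is understated. The sources call the libraries biological replicates, each a pool of 2 animals, and p-values measure the spread between these pools. Levels per kb used exon lengths of GENCODE for GRCm38, the assembly of mm10. Intervals are 95% limma intervals. Reads without molecular identifiers are not independent molecules, so read counts and the floor of 3 reads cover counting error only.

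The genes and the lists were chosen with earlier results of these data known. Values in every library are given for genes with an unadjusted p under 0.05 in a pairwise comparison or the interaction, for the largest change of each branch in each pairwise comparison, and for Srebf1, Srebf2, Insig1, Scd1 and Scd2. Hmgcs1, Msmo1, Dhcr7, Stard4 and others outside this rule were named after their values were seen. A protein comparison was not made here. Alternatives were pseudocounts of 0.1 and 1 CPM, no filter, a mean of 2 CPM, quantile and median-of-ratios scaling, a replicate block, only the libraries compared, edgeR 4.0.16 and DESeq2 1.42.0 on recovered reads, and each library left out. The test was tested on simulated data. Samples were treated as unpaired, since the labels do not say what the replicate numbers mean. Figures were drawn with matplotlib 3.10.9.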

Additional observations from a re-analysis of the deposited data

Results flagged for a closer look

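The E2 response of Insig1 differed between the genotypes by 0.31 on the log2 scale (Het-Met minus WT, SE 0.14), by limma's test of the interaction at an unadjusted p under 0.05. It did not pass the adjustment over all genes (limma adjusted p = 0.915). Insig1 was higher with E2 in 3 of 3 Het-Met libraries than in any vehicle-treated Het-Met library, and the E2-treated WT libraries lay between the vehicle-treated ones. The difference kept an unadjusted p under 0.05 in 6 of 19 alternatives and ranged from 0.13 to 0.48 with single libraries left out, the lowest being without vehicle-treated WT replicate 3.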

How the results depend on the processing

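Under every alternative other than the unadjusted threshold, 0 of the 36 genes were called. With an unadjusted p under 0.05 and no fold change limit the counts were 3 for E2 in Het-Met mice, 3 for genotype under vehicle, 3 for genotype under E2, 1 for the interaction, 1 for E2 over both genotypes and 3 for genotype over both treatments. With 1 library left out, the sterol median ranged from -0.18 to -0.011 for E2 in WT mice, from -0.17 to 0.029 for genotype under vehicle, from 0.11 to 0.23 for the interaction and from -0.012 to 0.085 for genotype over both treatments, and the fatty acid median from -0.061 to 0.12 for E2 in WT mice, from -0.20 to 0.011 for genotype under vehicle and from -0.085 to 0.078 for the interaction. For E2 over both genotypes the medians ranged from -0.063 to 0.034 (sterol) and from -0.0033 to 0.078 (fatty acid), and for E2 in Het-Met mice from 0.041 to 0.12 (sterol), the lowest without vehicle-treated Het-Met replicate 3. The ends of the other ranges came from leaving out vehicle-treated WT replicate 1 or 3, and the cause was not tested. The number of sterol genes at an unadjusted p under 0.05 changed with the library left out as well. A WT group left with 1 library was assumed to vary like the other groups. Settings that kept all libraries moved each median by less than the spread of library medians within groups (SD 0.0607 sterol, 0.0751 fatty acid). Same-numbered Het-Met libraries correlated at -0.124, 0.0162 and -0.0736 in their deviations from group means. Of the vehicle-treated Het-Met libraries, 1 of 3 correlated best with its own number. No shared effect of the number was seen, but so few pairs cannot show that the numbers carry no batch. With a replicate block, 0 genes were called and the sterol median of the interaction was 0.15 (20 of 23 above 0). With a mean of at least 2 CPM, Idi1 was not tested, and a fit on only the libraries compared was made for the 4 pairwise comparisons alone. The few reads counted limit the value of Idi1, and the 2 or 3 libraries per group limit all values.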
